A study of Homo sapiens with 6 samples.

Results

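The 55 genes described here encode chromatin coactivators, histone methyltransferases and the enzymes and remodelers that work with them. They were chosen by symbol from a written list, with earlier results of these data known. All 55 symbols matched a gene among the 29483 genes of the FPKM table, and 54 of them reached the mean FPKM of 0.5 required for a test, as did 13599 genes in all. *SRCAP* was the exception, at 0.0722 ± 0.0186 FPKM without TEPP-46 and 0.0393 ± 0.00934 FPKM with it (SD, n = 3 each), which corresponded to between 6 and 21 reads per library.

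RNA was sequenced from HK-2 cells, a line of immortalised human kidney cells that the labels describe as renal proximal tubular epithelium. All cells were kept for 7 days in medium with 25 mM high D-glucose (HG). The 3 libraries of the case group were then treated with 10 μM TEPP-46 for 1 day, and the 3 libraries of the control group were not. TEPP-46 is a small molecule that drives pyruvate kinase M2, a glycolytic enzyme, into its active tetramer. The whole reads behind the FPKM values were recovered, and the totals by which they had been divided were 18634891, 17924033 and 17378710 for control replicates 1, 2 and 3, and 16711934, 16047243 and 15363254 for case replicates 1, 2 and 3. These totals, which are not all the reads sequenced, were lower in each case library than in each control library. The case libraries were also less alike, with a median SD over genes of 0.19 on the log2 scale against 0.09 in the control group. The labels name replicates of cells and no separate thaws or passages, so that the p-values measure only the spread between these samples.

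The labelled cell type was checked against marker genes. Of 10 listed proximal tubule markers 9 were in the table, all 9 were below the filter, and their FPKM summed to 0.841, 0.923 and 0.939 in the control libraries, and to 0.591, 0.688 and 0.799 in the case libraries. *MME* was the most abundant of them and *LRP2*, the endocytic receptor megalin, was at 0 in 5 of the 6 libraries. The list of epithelial genes had 7 in the table, of which *VIM*, which encodes vimentin, is typical of mesenchymal cells and of cultured epithelium. The other 6, led by keratins, ranged in their sum from 1172.2 to 1303.0 FPKM over the control libraries and from 960.5 to 1291.9 over the case libraries, and with *VIM* from 1268.3 to 1400.1 and from 1079.5 to 1441.9. Markers of fibroblasts (3 genes, at most 0.450 summed), endothelium (4 genes, at most 0.0886) and leukocytes (1 gene, *CD68*, at most 0.0297) were near 0 in every library. Of the 7, 1 was downregulated, *CDH1*, which encodes E-cadherin (log2(FC) -0.64, SE 0.11, limma adjusted p = 0.0156), and 1 was upregulated, *VIM* (log2(FC) 0.66, SE 0.13, limma adjusted p = 0.0204). The other 5 did not pass, with log2(FC) of -0.27 for *KRT8*, -0.14 for *KRT7*, 0.02 for *KRT18* and *KRT19* and 0.04 for *EPCAM*. The part of these markers in the results on chromatin genes was not tested.

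In chromatin, DNA is wound around histones whose tails are written, read and erased by enzymes. Acetyltransferases such as p300 and CBP and the methyltransferases that act on histone H3 lysine 4 (H3K4) mark active enhancers and promoters, deacetylases and demethylases remove such marks, and EZH2 writes the repressive mark on H3 lysine 27. SWI/SNF, CHD and INO80-type remodelers use ATP to slide, eject or exchange nucleosomes, and many of these proteins are very large, which gives them long transcripts.

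After TEPP-46 the listed genes were mostly at lower levels. Of the 54 tested, 12 (22.2%) were downregulated DE genes, against 5.84% of all tested genes, and 1 (1.85%), *EZH2*, was upregulated, against 7.34% of all tested genes. Here a DE gene is one with an adjusted p of at most 0.05 in limma, a threshold that 13.2% of all tested genes passed in either direction. The 12 downregulated genes were *SMARCC2*, *SETD1B*, *KMT2D*, *CHD3*, *NCOA2*, *EP400*, *CHD8*, *KAT6A*, *HDAC5*, *KMT2B*, *NCOR1* and *KMT2A* in order of p, with log2(FC) between -1.19 and -0.37. The other 41 did not pass, and their log2(FC) lay between -0.80 and 0.07. The median log2(FC) of the 54 was -0.33, and that of all tested genes was -0.00. A total of 48 of the 54 (88.9%) had a log2(FC) below 0, against 50.2% of all tested genes. In 36 (66.7%) every case library was below every control library, which held for 20.4% of all tested genes, and in 1 (*EZH2*) every case library was above, which held for 19.5%. At an unadjusted p under 0.05 there were 30 of the 54, 29 lower and 1 higher, where all tested genes gave 33.1%, with 16.2% lower and 16.8% higher. In bulk RNA, fewer cells that express a gene and less of its RNA per cell cannot be told apart.

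**Figure D1:**
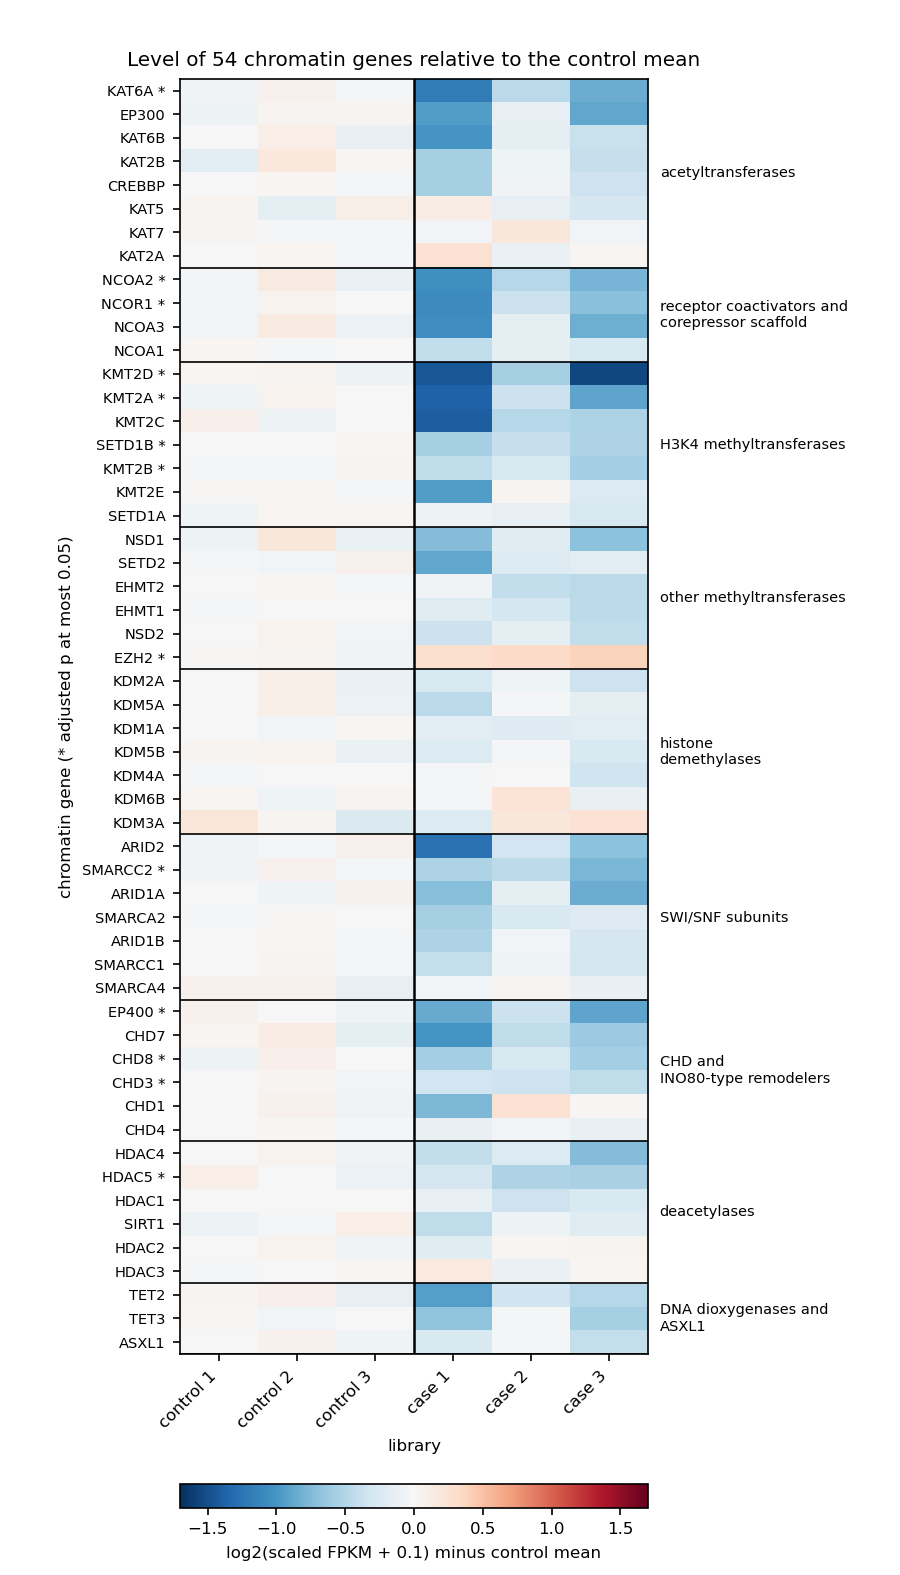
Each row is 1 of the 54 tested chromatin genes, grouped by role, and each column is 1 library; the colour is log2(scaled FPKM + 0.1) minus the mean of the 3 control libraries, with asterisks at the 13 genes past the threshold. Most genes are lower (blue) in the case group, more so in case replicates 1 and 3 than in case replicate 2, and *EZH2* is higher (red) in all 3 case libraries.

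The case libraries were unequal. Measured from the mean of the control libraries, the median of the 54 genes was -0.45 in case replicate 1, -0.15 in case replicate 2 and -0.39 in case replicate 3, and between -0.02 and 0.04 in the control libraries. Case replicate 1 was the lowest of the 3 case libraries for 29 of the 54 genes, case replicate 3 for 21 and case replicate 2 for 4, and case replicate 2 was the highest for 39. Reads of the 55 genes together were 0.386%, 0.401% and 0.383% of the control libraries and 0.275%, 0.338% and 0.287% of the case libraries. The case group was thus lower in every library, with case replicate 2 nearest to the control group.

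**Figure D2:**
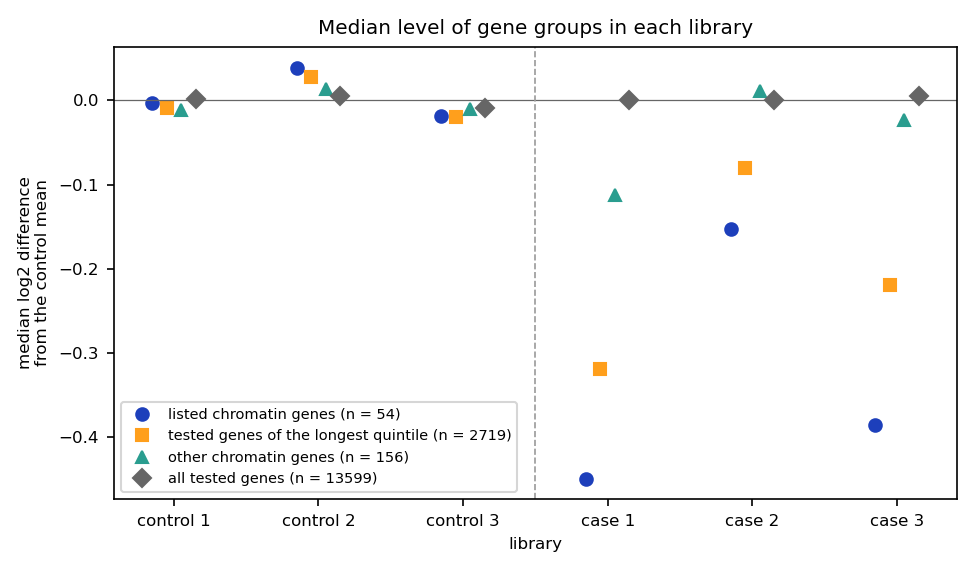
The median difference in log2(scaled FPKM + 0.1) from the mean of the 3 control libraries is plotted for each library, for the 54 listed chromatin genes, the 2719 tested genes of the longest quintile, 156 other chromatin genes and all 13599 tested genes. The listed genes stand at -0.45, -0.15 and -0.39 in case replicates 1, 2 and 3, and the genes of the longest quintile at -0.32, -0.08 and -0.22.

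The H3K4 methyltransferases held *KMT2D*, the gene with the lowest log2(FC) of the 54. All 7 were tested, 4 were downregulated DE genes (*KMT2D*, *SETD1B*, *KMT2B* and *KMT2A*), none was upregulated, and their median log2(FC) was -0.49. Of all tested genes, 5.84% were downregulated, and of the longest quintile of them 13.6%, with a median log2(FC) of -0.21. That quintile held all of these 7 but *SETD1A*. These enzymes are the catalytic subunits of the COMPASS complexes, in which KMT2C and KMT2D act mainly at enhancers and SETD1A and SETD1B at promoters. *KMT2D* (ENSG00000167548, minus strand, chr12:49018975-49060794) had FPKM of 5.62, 5.71 and 5.19 in the control libraries and 1.78, 3.61 and 1.73 in the case libraries. Case replicate 2 lay between the other case libraries and the control group, and the groups did not overlap. The ratio of the groups was 0.439, with a log2(FC) of -1.19 (SE 0.24, limma adjusted p = 0.0226). *KMT2A* (ENSG00000118058, plus strand, chr11:118436456-118526832), known for its fusions in leukemia, had FPKM of 2.71, 3.00 and 2.90 in the control libraries and 0.956, 2.17 and 1.42 in the case libraries. The groups did not overlap but the case libraries spread over a wider range than the control libraries, and the log2(FC) of -0.88 (SE 0.23, limma adjusted p = 0.0470) passed the threshold by the smallest margin of the 13.

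*KMT2B*, the closest relative of *KMT2A* (ENSG00000272333, plus strand, chr19:35717973-35738880), had FPKM of 5.81, 5.85 and 6.14 in the control libraries and 4.0, 4.8 and 3.76 in the case libraries, and its log2(FC) was -0.43 (SE 0.10, limma adjusted p = 0.0365). *SETD1B* (ENSG00000139718, plus strand, chr12:121804009-121832656) had FPKM of 4.08, 4.11 and 4.21 in the control libraries and 2.53, 3.05 and 2.72 in the case libraries. The 3 control libraries of *SETD1B* were almost equal, and its log2(FC) was -0.49 (SE 0.10, limma adjusted p = 0.0214). Its paralog *SETD1A* had FPKM of 7.47, 8.09 and 8.12 against 6.76, 7.02 and 6.20. The *SETD1A* groups did not overlap either, but the log2(FC) of -0.17 (SE 0.09) did not pass (limma adjusted p = 0.230). *KMT2C*, the paralog of *KMT2D*, had FPKM of 1.28, 1.13 and 1.22 against 0.360, 0.818 and 0.764, and its log2(FC) was -0.80 (SE 0.28, limma adjusted p = 0.0912). Parts of *KMT2C* have near-identical copies elsewhere in the genome, and its level is uncertain to that extent. *KMT2E*, which is not known to be an active methyltransferase, had a log2(FC) of -0.38 (SE 0.23, limma adjusted p = 0.292) and overlapping groups.

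**Figure D3:**
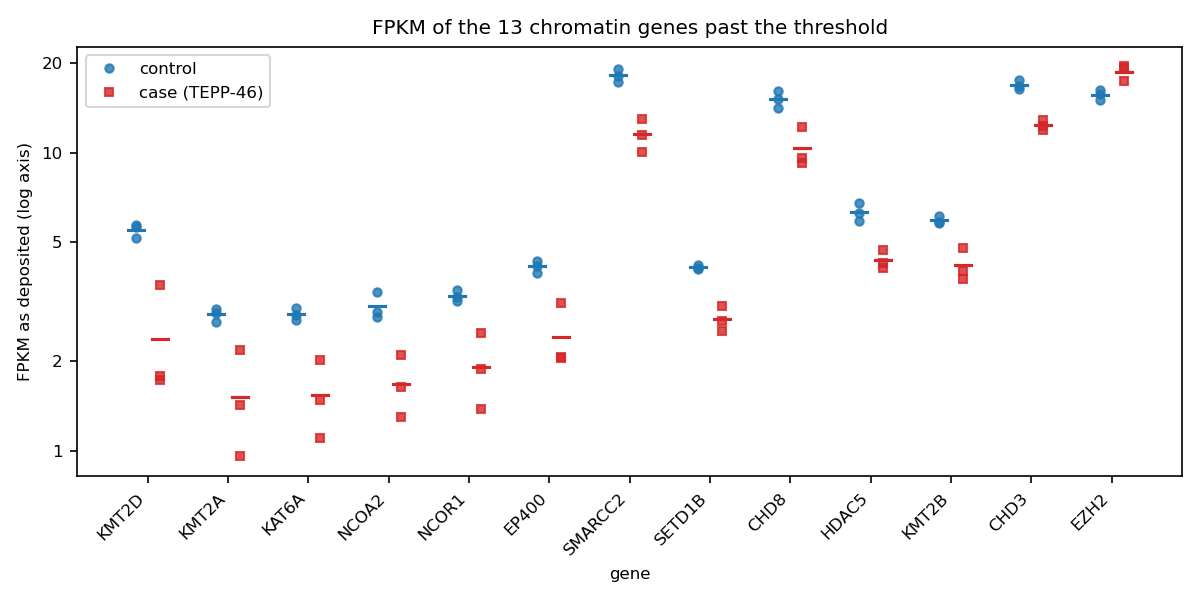
Deposited FPKM on a log axis for the 13 chromatin genes past the threshold, with 1 point per library (circles, control; squares, case) and a bar at the mean of each group of 3. The case libraries lie below the control libraries for 12 genes and above them for *EZH2*, and the case libraries spread more widely for *KMT2D* (1.73 to 3.61) than for *CHD3* (11.9 to 12.9).

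Of the 6 other methyltransferases, 1 was an upregulated DE gene, none was downregulated, and the median log2(FC) was -0.32. Of all tested genes, 7.34% were upregulated and 5.84% downregulated. *EZH2* (ENSG00000106462, minus strand, chr7:148807257-148884321), the catalytic subunit of Polycomb repressive complex 2, had FPKM of 15.8, 16.2 and 15.1 in the control libraries and 17.4, 19.3 and 19.5 in the case libraries. The groups did not overlap, the ratio was 1.26 and the log2(FC) was 0.33 (SE 0.08, limma adjusted p = 0.0312). With FPKM as deposited, TPM and quantile normalization the log2(FC) of *EZH2* remained above 0, at 0.25, 0.13 and 0.27, and did not pass (adjusted p = 0.0709, 0.301 and 0.0562). The remaining 5 had every case library below every control library and did not pass. Every case library was below every control library in 20.4% of all tested genes and in 42.3% of the longest 20% of them. All of the 5 but *EHMT2* are among these longest genes. *NSD1* and *NSD2*, which methylate H3 lysine 36, had log2(FC) of -0.55 and -0.31 (adjusted p = 0.0648 and 0.0608). *SETD2*, which completes that mark, had -0.44, and *EHMT1* and *EHMT2*, the pair that methylates H3 lysine 9, had -0.31 and -0.32 (adjusted p from 0.0781 to 0.145 over the 3).

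Promoter sequence was available from RefSeq (GRCh38.p14) for 47 of the 55 genes, and the 250 bases upstream of the start site are shown for 3 of them, the gene with the largest fall, a second H3K4 methyltransferase with a smaller fall, and the gene that rose. Capitals mark letters of a searched motif.
KMT2D, chr12:49060795-49061044, minus strand: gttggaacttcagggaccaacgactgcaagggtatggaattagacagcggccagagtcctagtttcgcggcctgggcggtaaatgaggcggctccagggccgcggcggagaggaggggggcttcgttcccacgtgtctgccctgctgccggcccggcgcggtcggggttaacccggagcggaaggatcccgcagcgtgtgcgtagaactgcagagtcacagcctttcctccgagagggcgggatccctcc
KMT2B, chr19:35717753-35718002, plus strand: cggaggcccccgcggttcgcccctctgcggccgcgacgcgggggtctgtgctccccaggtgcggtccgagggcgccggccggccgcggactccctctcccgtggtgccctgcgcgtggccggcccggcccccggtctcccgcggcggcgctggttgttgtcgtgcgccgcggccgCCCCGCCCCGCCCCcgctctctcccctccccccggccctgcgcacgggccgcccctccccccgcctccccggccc
EZH2, chr7:148884292-148884541, minus strand: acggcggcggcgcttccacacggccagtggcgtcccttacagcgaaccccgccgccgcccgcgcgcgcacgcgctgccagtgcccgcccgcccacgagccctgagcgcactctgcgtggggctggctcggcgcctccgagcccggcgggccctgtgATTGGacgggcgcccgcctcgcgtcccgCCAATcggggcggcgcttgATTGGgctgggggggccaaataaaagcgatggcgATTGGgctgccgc
Searched on both strands, by letters chosen with the expression results known, were the SP1 box GGGGCGGGG, the CCAAT box CCAAT, the ETS core CCGGAAGT, the E2F forms TTTGGCGC and TTCCCGCC, the YY1 element AAGATGGCG, the NRF1 element GCATGCGC and the cyclic AMP element TGACGTCA. The windows of the 3 genes differed. *KMT2B* held 2 SP1 boxes, which overlap each other, *EZH2* held 4 CCAAT boxes and *KMT2D* none of the 8 motifs. The SP1 box was in 15 of the 47 windows (31.9%), against 15.4% of the 27305 windows of the same length from all genes, and in 3 of the 7 windows of downregulated genes. The CCAAT box was in 8 (17.0%) against 33.0%, the ETS core in 2 (4.26%) against 3.64%, and the other 5 motifs in 0, where all windows gave 0.553% to 2.81%. The 47 windows had a median of 24 CpG dinucleotides and 69.6% GC, against 11 and 58.0% in all windows. The windows of all genes include genes that were not tested here, and no background of like GC content was used. Such matches are descriptions of sequence, and binding was not measured.

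Among the nuclear receptor coactivators and the corepressor scaffold NCOR1, all 4 were lower in every case library and 2 were downregulated DE genes, with a median log2(FC) of -0.70. All 4 are among the longest 20% of tested genes, of which 42.3% were lower in every case library and 13.6% downregulated. *NCOA2* (ENSG00000140396, chromosome 8), a p160 coactivator that brings acetyltransferases to receptors, had FPKM of 2.92, 3.41 and 2.82 in the control libraries and 1.30, 2.09 and 1.63 in the case libraries. Its log2(FC) was -0.78 (SE 0.16, limma adjusted p = 0.0252). *NCOR1* (ENSG00000141027, minus strand, chr17:16029065-16218185), which holds HDAC3 at repressed genes, had FPKM of 3.19, 3.46 and 3.29 against 1.38, 2.48 and 1.88 (log2(FC) -0.72, SE 0.18, limma adjusted p = 0.0372). Genes of opposite function in transcription, a coactivator and a corepressor, thus fell by similar amounts. *NCOA3*, another p160 coactivator, had a log2(FC) of -0.68 (SE 0.22, limma adjusted p = 0.0731), and *NCOA1* of -0.27 (SE 0.12, limma adjusted p = 0.156).

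The 8 acetyltransferases gave 1 downregulated DE gene (12.5%) and a median log2(FC) of -0.33. Of all tested genes 5.84% were downregulated, and of the longest quintile of them 13.6%. *CREBBP*, *KAT6A*, *KAT6B* and *KAT7* are in that quintile, and the other acetyltransferases are shorter. *KAT6A* (ENSG00000083168, chromosome 8), which acetylates histone H3, had FPKM of 2.74, 3.01 and 2.85 in the control libraries and 1.1, 2.02 and 1.48 in the case libraries (log2(FC) -0.83, SE 0.19, limma adjusted p = 0.0295). Its paralog *KAT6B* had FPKM of 1.07, 1.17 and 0.970 against 0.438, 0.916 and 0.758. The *KAT6B* groups did not overlap, yet the case libraries differed by more than 2-fold, and the log2(FC) of -0.52 (SE 0.26) did not pass (limma adjusted p = 0.202). *EP300* and *CREBBP*, the paralogs p300 and CBP that acetylate enhancers, were lower in every case library without passing, at -0.66 and -0.32 (adjusted p = 0.0692 and 0.152). *KAT2B* had -0.34 with overlapping groups. *KAT2A*, *KAT5* and *KAT7* stood at 0.06, -0.10 and 0.03, also with overlapping groups and SE of 0.10 to 0.13.

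Histone demethylases had the smallest median change of the roles. None of the 7 was a DE gene, against 13.2% of all tested genes, so that 0 of 7 is near the background. The median log2(FC) was -0.17 and the values ran from -0.23 to 0.07. *KDM2A*, *KDM3A*, *KDM5A* and *KDM5B* are in the longest quintile of tested genes, which had a median log2(FC) of -0.21. In that quintile 42.3% were lower in every case library, against 20.4% of all tested genes. *KDM1A*, which removes methyl groups from H3K4, was the only member of this role whose groups did not overlap, with a log2(FC) of -0.19 (SE 0.07, limma adjusted p = 0.104). *KDM2A* had -0.23 (SE 0.10, limma adjusted p = 0.151), and *KDM4A*, *KDM5A* and *KDM5B* lay between -0.22 and -0.13. *KDM6B*, which erases the mark that EZH2 writes, had 0.02 (SE 0.12), and *KDM3A* had 0.07 (SE 0.18). Whether writers and erasers of marks differed in how often they fell was not tested.

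Of the 7 SWI/SNF subunits, 1 was a downregulated DE gene, 6 were lower in every case library, and the median log2(FC) was -0.35. These 7 are also among the longest 20% of tested genes, where 13.6% were downregulated and 42.3% lower in every case library, so that 1 of 7 downregulated is near the background. *SMARCC2* (ENSG00000139613, minus strand, chr12:56162359-56189567), a core scaffold subunit, had FPKM of 17.3, 19.2 and 18.1 in the control libraries and 11.5, 13 and 10.1 in the case libraries. It had the smallest adjusted p of the 54 (limma adjusted p = 0.0171), with a log2(FC) of -0.59 (SE 0.10) and rank 392 by p among all tested genes. Its paralog *SMARCC1* had FPKM of 17.2, 18.0 and 17.0 against 12, 16.2 and 13.5 and did not pass (log2(FC) -0.26, SE 0.10, limma adjusted p = 0.120). *ARID2* and *ARID1A*, which define the PBAF and BAF forms of the complex, had log2(FC) of -0.76 and -0.57 (adjusted p = 0.0581 and 0.0700). *ARID1B* had -0.29, *SMARCA2* had -0.35, and the other ATPase, *SMARCA4*, had -0.04 (SE 0.15) with overlapping groups.

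The CHD and INO80-type remodelers gave 3 downregulated DE genes of 6 tested, with a median log2(FC) of -0.43. All of the 6 but *CHD4* are in the longest quintile of tested genes. There 13.6% were downregulated, with a median log2(FC) of -0.21, against 5.84% downregulated of all tested genes. *EP400* (ENSG00000183495, plus strand, chr12:131949942-132080460), the ATPase of the complex that holds the acetyltransferase KAT5, had FPKM of 4.35, 4.17 and 3.94 in the control libraries and 2.04, 3.14 and 2.07 in the case libraries (log2(FC) -0.71, SE 0.16, limma adjusted p = 0.0276). *CHD8* (ENSG00000100888, minus strand, chr14:21385194-21456126), a remodeler that binds β-catenin, had FPKM of 14.2, 16.1 and 15.2 against 9.25, 12.2 and 9.60 (log2(FC) -0.48, SE 0.11, limma adjusted p = 0.0283). In both genes case replicate 2 was the highest case library and was still below every control library. *CHD3* (ENSG00000170004, plus strand, chr17:7884796-7912760), an ATPase of the NuRD complex, had FPKM of 16.8, 17.5 and 16.4 against 12.3, 12.9 and 11.9 (log2(FC) -0.37, SE 0.08, limma adjusted p = 0.0235). Relative to their mean, its 3 case libraries lay closer together than those of any other downregulated gene. *CHD4*, the major ATPase of NuRD in most cells, had FPKM of 32.4, 33.3 and 32.4 against 27.3, 31.1 and 28.7, with a log2(FC) of -0.10 (SE 0.07, limma adjusted p = 0.371). *CHD7*, the paralog of *CHD8*, had FPKM of 1.57, 1.69 and 1.38 against 0.645, 1.09 and 0.920, with a log2(FC) of -0.69 (SE 0.20, limma adjusted p = 0.0572). *CHD1* had -0.16 (SE 0.24) with overlapping groups, since case replicate 1 was low and case replicate 2 high. *SRCAP*, the relative of *EP400*, had FPKM of 0.0510, 0.0857 and 0.0800 against 0.0438, 0.0456 and 0.0286 and was not tested.

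Of the 6 deacetylases, 1 was a downregulated DE gene (16.7%), and the median log2(FC) was -0.25. Among all tested genes 5.84% were downregulated, and among the longest quintile of them, which held *HDAC2*, *HDAC4* and *HDAC5*, 13.6%. *HDAC5* (ENSG00000108840, minus strand, chr17:44076746-44123702), a class IIa enzyme that shuttles between nucleus and cytoplasm, had FPKM of 6.80, 6.29 and 5.92 in the control libraries and 4.73, 4.27 and 4.09 in the case libraries (log2(FC) -0.45, SE 0.11, limma adjusted p = 0.0350). *HDAC4*, its paralog, had FPKM of 3.39, 3.52 and 3.26 against 2.30, 2.82 and 1.90 and a log2(FC) of the same size, -0.46, with a wider error (SE 0.14, limma adjusted p = 0.0679). *HDAC1* and the NAD-dependent *SIRT1* were lower in every case library without passing (log2(FC) -0.25 and -0.24, adjusted p = 0.0706 and 0.171). *HDAC2* and *HDAC3* stood at -0.04 and 0.03 with overlapping groups. Of the DNA dioxygenases, which oxidise methylated cytosine, *TET2* had a log2(FC) of -0.59 (SE 0.29) and *TET3* of -0.43 (SE 0.22), and *ASXL1*, a partner of the Polycomb deubiquitinase, had -0.23 (SE 0.11). None of these 3 passed (adjusted p of 0.2 to 0.219).

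The balance within paralog pairs was described by a log2 ratio in each library, for 18 pairs with both genes tested. This ratio is the difference between their values of log2(scaled FPKM + 0.1). In 8 pairs the groups did not overlap, and no share over other gene pairs was computed to set beside this count. *KMT2A* was lower in the case group relative to *KMT2B*, by -0.45 (control -1.02 ± 0.07, case -1.47 ± 0.44, SD, n = 3 each), and *EP300* relative to *CREBBP*, by -0.34 (0.32 ± 0.07 to -0.01 ± 0.23). *KAT6A* was lower relative to *KAT6B* by -0.31, *SMARCA2* relative to *SMARCA4* by -0.31, *ARID1A* relative to *ARID1B* by -0.28 and *CHD3* relative to *CHD4* by -0.28. *SETD1A* was higher relative to *SETD1B*, by 0.33 (0.92 ± 0.05 to 1.24 ± 0.12), and *SMARCC1* relative to *SMARCC2*, by 0.33 (-0.06 ± 0.04 to 0.26 ± 0.19). In the other 10 pairs the groups overlapped, and the differences lay between -0.23 for *NSD1*/*NSD2* and 0.41 for *NCOA1*/*NCOA3*. These ratios were not tested. Without case replicate 1 the shift of *KMT2A*/*KMT2B* was -0.21 and that of *SMARCA2*/*SMARCA4* -0.20, and without case replicate 3 that of *ARID1A*/*ARID1B* was -0.15. After the length correction, *EP300*/*CREBBP* and *ARID1A*/*ARID1B* had larger shifts (-0.60 and -0.57), and *KMT2A*/*KMT2B* and *SMARCA2*/*SMARCA4* smaller ones (-0.23 and -0.18).

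**Figure D4:**
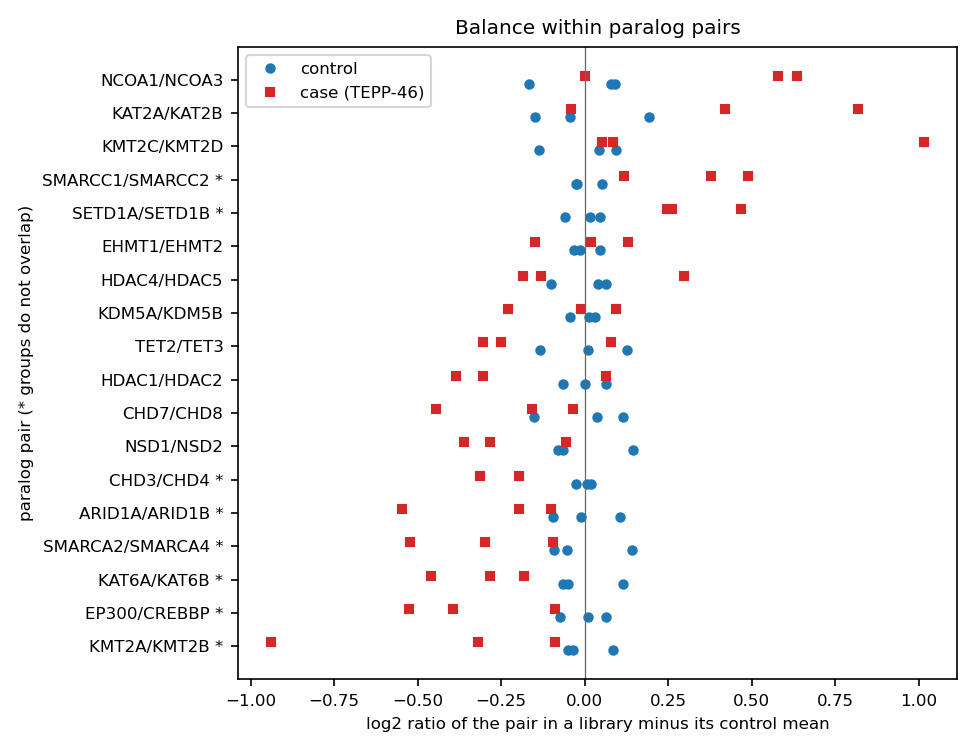
For each of 18 paralog pairs, the log2 ratio of the first gene to the second in each library is shown minus the mean of the 3 control libraries, with circles for control and squares for case libraries and asterisks at the 8 pairs whose groups do not overlap. *CHD3*/*CHD4* shows a shift of -0.28 with closely spaced libraries, and *KMT2A*/*KMT2B* a shift of -0.45 that is carried most by case replicate 1.

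The listed genes are long, and length moved with the fold change. The length by which their FPKM were divided had a median of 10330 bases over the 54 genes and of 4324 bases over all tested genes, and the genomic span had a median of 89623 against 26199 bases. Across the 54 genes the log2(FC) correlated with log2 length at r = -0.47 (Spearman's rho -0.46), and across all 13599 tested genes at r = -0.28 (rho -0.36); these genes share the same 6 libraries and are not independent replicates. The log2(FC) also correlated with log2 mean FPKM, at r = 0.45 (rho 0.47) across the 54 genes and r = 0.16 (rho 0.22) across all tested genes, so that longer and less abundant genes had the lower values. In quintiles of all tested genes by length, the median log2(FC) was 0.16, 0.13, 0.02, -0.08 and -0.21 from the shortest to the longest, and 2.09%, 2.21%, 4.16%, 7.09% and 13.6% were downregulated. The share with every case library below every control library ran from 6.54% through 8.94%, 16.9% and 27.3% to 42.3%. Among the listed genes, 40 of the 54 fell in the longest quintile (7480 to 44058 bases), 7 in the next and 7 in the middle quintile.

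Within the longest quintile the listed genes had a lower median than the quintile as a whole. There, 12 of the 40 were downregulated, against the 13.6% of that quintile, 29 were lower in every case library, against 42.3%, and 34 were below the median of the quintile. Their median log2(FC) was -0.43, against -0.21. The median was below that of the quintile in each case library, at -0.56 against -0.32 in case replicate 1, -0.22 against -0.08 in case replicate 2 and -0.47 against -0.22 in case replicate 3. All 12 downregulated genes were in this quintile, and none of the 14 listed genes of the 2 quintiles below it was downregulated. In steps of 4000 bases, which were chosen after the data had been seen, 0 of 3 were downregulated below 4000 bases (2.34% of all tested genes), 1 of 13 from 4000 to 8000 (6.20%), 7 of 16 from 8000 to 12000 (12.6%), 1 of 12 from 12000 to 16000 (18.6%) and 3 of 10 from 16000 upwards (22.5%). The step from 8000 to 12000 bases held *SETD1B*, *SMARCC2*, *CHD3*, *CHD8*, *NCOA2*, *KMT2B* and *KAT6A*, and the longest step held *EP400*, *KMT2D* and *KMT2A*. The longest quintile is wide and was not matched to the listed genes in length. Below the median of their own step were 3 of 3, 10 of 13, 13 of 16, 7 of 12 and 6 of 10 listed genes. From 8000 bases their medians were -0.40, -0.44 and -0.64, against -0.19, -0.33 and -0.36. From 12000 to 16000 bases they were not lower in case replicate 2 (-0.10 against -0.13).

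**Figure D5:**
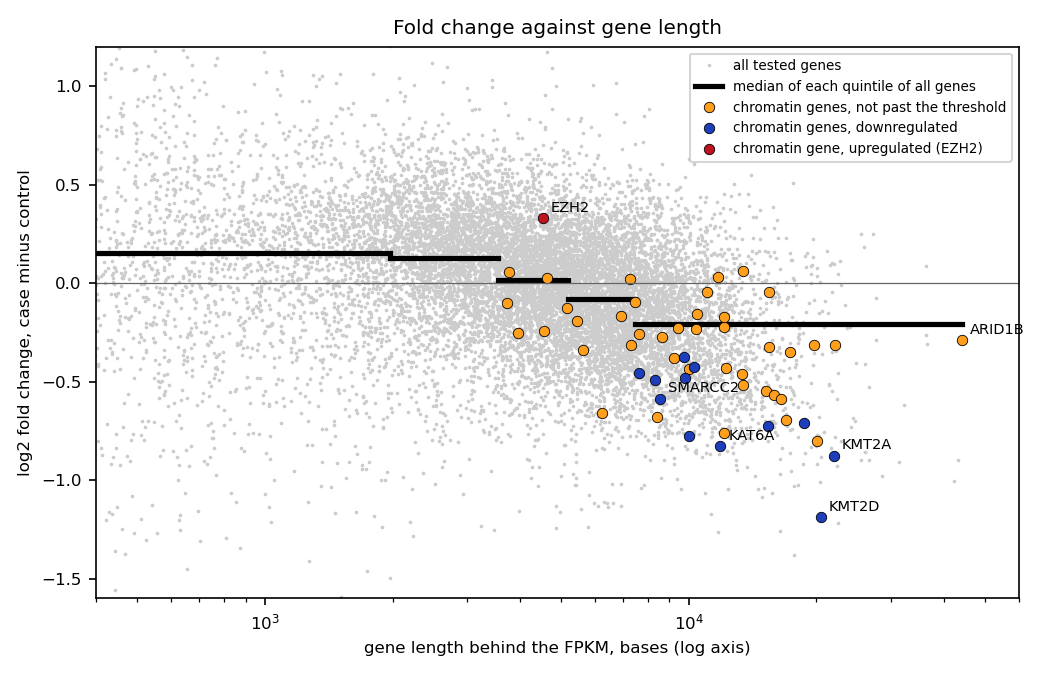
The log2(FC) of case against control is plotted against the gene length behind the FPKM, in bases on a log axis, for all tested genes (grey) and the 54 listed genes (orange, not past the threshold; blue, downregulated; red, *EZH2*); black bars are medians of quintiles of all tested genes. The medians fall from 0.16 in the shortest to -0.21 in the longest quintile, and most listed genes of the longest quintile lie below its bar.

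A correction of each library for length lowered the number of calls. After it, 6 of the 54 were downregulated and 1 upregulated, against 4.35% downregulated of all tested genes, and the median of the 54 was -0.17 where that of all tested genes was 0.00. *KMT2D* (log2(FC) -0.77), *NCOA2* (-0.57), *KAT6A* (-0.57), *SMARCC2* (-0.42) and *SETD1B* (-0.34) remained downregulated, *EZH2* remained upregulated at 0.33, and *HDAC1* (-0.29) was added (limma adjusted p from 0.0293 to 0.0430). The other 7 kept their sign without passing: *CHD3* at -0.17, *KMT2B* at -0.21, *CHD8* at -0.28, *EP400* at -0.31, *HDAC5* at -0.32, *NCOR1* at -0.39 and *KMT2A* at -0.44 (adjusted p from 0.0654 to 0.235). A correction for genomic span left 11 downregulated, against 5.97% of all tested genes, and *EZH2* upregulated.

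Whether the calls held depended on single libraries. In limma, 0 of the listed genes were downregulated without case replicate 3 or without any 1 of the 3 control replicates, where the calls over all tested genes also fell, to 0.522% downregulated without case replicate 3 and to between 0.103% and 0.213% without a control replicate. When case replicate 1 was left out, 14 were downregulated, against 7.89% of all tested genes, and when case replicate 2 was, 24 were, against 12.4%. *EZH2* passed without case replicate 1 or 2 only. *KMT2A* passed only without case replicate 2 (limma adjusted p = 0.00861). At an unadjusted p under 0.05, 21 to 23 were lower in the limma fits with 0 calls, against 10.4% to 12.2% of all tested genes in those fits. In limma voom on the whole reads, which gave 2814 DE genes, 24 of the 54 (44.4%) were downregulated, against 11.1% of all tested genes, and *EZH2* was upregulated. By the same test 15, 13 and 17 were downregulated without control replicates 1, 2 and 3, against 5.26%, 4.42% and 5.11% of all tested genes, and 9 without case replicate 3, against 3.33%, and *EZH2* did not pass in these 4 fits. Without case replicate 1 or 2, 25 and 36 were downregulated, against 13.3% and 16.6%, and *EZH2* passed in both.

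Other chromatin genes were listed by function. Of 164 written, 163 were in the table and 156 were tested. Of these, 16 (10.3%) were downregulated, against 5.84% of all tested genes, and 3 (1.92%) upregulated, against 7.34%, and the median log2(FC) was -0.07. They were shorter than the listed genes, with a median length of 6593 bases, and the difference between the lists was not tested. The 57 of them in the longest quintile had 12 downregulated genes and a median log2(FC) of -0.20, where the quintile as a whole had 13.6% and -0.21. Among partners of the listed enzymes, *HCFC1* (-0.57) and *NCOA6* (-0.56), subunits of COMPASS complexes, were downregulated and *DPY30* (0.34), a small core subunit of them, was upregulated. *TRRAP* (-0.70), the scaffold shared by the KAT5 and KAT2A complexes, and *HAT1* (-0.48), which acetylates new histone H4, were downregulated, and *KANSL2* (0.41), a subunit of a KAT8 complex, was upregulated. Of further methyltransferases, *SETD7* (-0.56) was downregulated and *KMT5A* (0.40), which methylates H4 lysine 20, upregulated. The demethylase *KDM3B* (-0.47), the remodeler subunits *BAZ2A* (-0.65) and *SMARCA1* (-0.41), the corepressor *SIN3B* (-0.37), the acetyl-lysine reader *BRD3* (-0.50) and *ASXL2* (-0.95), the paralog of *ASXL1*, were downregulated (limma adjusted p from 0.0116 to 0.0476 over these 14). None of the 18 other SWI/SNF subunits tested was a DE gene, with a median of 0.04. Of the 12 tested genes of DNA methylation, readers and the Polycomb deubiquitinase, 5 were downregulated, with a median of -0.30. These subgroups had the lowest and the highest share downregulated. In the remaining subgroups 4.0% to 18.2% were downregulated, with medians from -0.18 to 0.03. The part of length in these differences was not tested.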

How the data were processed

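The deposited values are FPKM, made by the authors, who filtered the reads, aligned them to GRCh38.p13 with HISAT2 (2.1.0) and counted them with HTSeq (0.6.0). The strandedness of the counting is not given in the sources used here, so that a gene and an overlapping antisense gene could not be told apart. FPKM were divided by median-of-ratios factors (0.944 to 1.04), 0.1 was added, and log2 values were tested with limma 3.58.1 in R 4.3.3 for every gene whose mean FPKM was 0.5 or more (intensity trend, no covariate, Benjamini-Hochberg adjustment over 13599 genes). On this scale the changes of low genes are understated. The factors were taken over the tested genes. This followed an earlier processing of these data and was settled after factors over all genes above 0 had also been computed. Whole reads and the length behind each FPKM were recovered from the values, within 0.0001 of a whole read, for 27921 of 27922 genes above 0. This recovered length stood in for the planned annotated exon length, and 10332 of 13489 tested genes were within 10% of GENCODE v44. Corrections for length, span and GC took a loess curve (span 0.5) from each library. Symbols and positions were from GENCODE v44 (GRCh38). The fit was tested on simulated data with the same dispersion in both groups and no trend with length. That simulation cannot show how the fit performs with the wider spread of the case libraries or with the length trend.

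The members, lists, pairs and motifs were chosen with earlier results of these data known. Values in every library are given for up to 16 members past the threshold and, where a written list of pairs held one, their paralog, and of the other chromatin genes the first 2 by p in each direction and subgroup are named, except for an item that is not reported here. *KMT2E* and other members that did not pass were named after their values had been seen. Genes are not independent of each other, and the reads carry no molecular identifiers, so that they do not count molecules independently.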

Additional observations from a re-analysis of the deposited data

How the results depend on the processing

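The median of the listed genes minus that of all tested genes was -0.33 and lay between -0.40 and -0.17 under every alternative run, with -0.17 after correction for length, with or without the replicate block. Scaling to TPM moved the median of all genes to -0.19. The share of DE genes that were upregulated was 55.7%, and was 37.1% with FPKM as deposited and 13.8% with TPM. Counts below are upregulated and downregulated DE genes, in that order.

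For all tested genes (998 and 794) they were 662 upregulated with FPKM as deposited, 1812 and 1494 after GC correction, 383 and 2387 with TPM, 329 and 191 without a filter on low values, 436 and 416 without the intensity trend, and 1512 downregulated with voom. For the listed genes (1 and 12) they were 0 and 28 with TPM, 0 and 2 without a filter, 0 and 3 without the intensity trend, 23 downregulated after GC correction, 24 with voom and 6 after length correction, and 0 upregulated with FPKM as deposited or quantile normalization. For the other chromatin genes (3 and 16) they were 14 and 28 after GC correction, 0 and 36 with TPM, 6 and 6 after length correction, 6 upregulated after span correction, 9 and 27 with voom, 5 downregulated without a filter and 7 without the intensity trend. Their median minus that of all tested genes was -0.07, 0.031 after length correction with or without the block, and 0.001 after span correction.

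With the replicate block, 848 and 762 of all tested genes and 0 and 15 listed genes passed. With the block and length correction, 519 and 360 of all tested genes, 0 and 2 listed genes and 4 downregulated other chromatin genes passed. Same-numbered libraries deviated together with r = 0.06, 0.10 and -0.05, and libraries of unlike number with r from -0.18 to 0.12. With 3 libraries per group these values cannot decide whether the samples were paired.

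Without 1 replicate in turn, upregulated genes ran from 55 to 1810 and downregulated from 14 to 1684 over all tested genes, from 0 to 1 and from 0 to 24 over the listed genes, and from 0 to 14 and from 0 to 27 over the other chromatin genes, whose median difference ran from -0.071 to 0.002 (without case replicate 1). *CHD4* changed sign after length correction, with or without the block, to 0.028. Besides the shifts given with the paralog pairs, *KMT2A*/*KMT2B* (-0.45) had -0.29 after span correction and -0.24 with a pseudocount of 1, *ARID1A*/*ARID1B* (-0.28) -0.43 and *SMARCC1*/*SMARCC2* (0.33) 0.55 after span correction. The cause of these changes was not tested. Factors over all genes above 0, added after seeing the data, gave 1056 and 741 for all tested genes and 1 and 12 for the listed genes. The case libraries spread more than the control libraries, and 3 libraries per group limit the smallest changes that can pass.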
